A study of Mus musculus with 16 samples.

Results

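Of the 30588 PPARγ peaks called in mouse 3T3-L1 adipocytes, 464 were strong in cells given the solvent alone and had a PPARγ signal at least about 2-fold lower after 1 h of rosiglitazone. They are called losing sites here. A losing site had at least 20 PPARγ tags in DMSO, or 17.6 deposited units. It also had a log2 ratio of rosiglitazone to DMSO of -1 or less, computed on the deposited PPARγ values after adding 1. A tag is 1 mapped read, and the deposited values are tags scaled by library. The sites were thus chosen by their PPARγ values in both treatments, and every PPARγ value of theirs is a description. C/EBPα, MED1 and CBP, the overlap with C/EBPα peaks, the focus ratio and the position were not used to choose them.

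3T3-L1 is a fibroblast line that becomes fat cells after hormonal induction, and all cells were used at day 7 of that programme. The treated cells received 1 µM rosiglitazone in 0.1% DMSO, and their controls received 0.1% DMSO, both for 1 h. Chromatin was immunoprecipitated for PPARγ, C/EBPα, MED1 or CBP, and the peak lists give 1 column for each factor and treatment. RNA polymerase II and input chromatin belong to the same series and were not analysed here. The labels name 2 PPARγ samples per treatment, while the PPARγ columns name none, so it is not known whether a column holds 1 sample or both. Comparisons between treatments therefore lack a replicate check, and p-values are not given.

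PPARγ is a nuclear receptor that binds DNA together with RXR and drives the differentiation of fat cells. Rosiglitazone, an antidiabetic drug, is a synthetic ligand that sits in its binding pocket and favours the exchange of corepressors for coactivators. MED1 is the Mediator subunit that contacts nuclear receptors. CBP acetylates histones and is recruited by many transcription factors. C/EBPα is a basic leucine zipper factor that occupies many enhancers beside PPARγ in fat cells. A lower ChIP signal in a culture can reflect fewer cells with the factor bound or less binding per cell, and these cannot be told apart.

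The losing sites made up 7.34% of the 6319 peaks that passed the DMSO limit, a share fixed by the rule. Of all 30588 PPARγ peaks, 4.43% met the ratio limit whatever their DMSO value. The losing sites are set against the other 5855 of those peaks. The median PPARγ signal at losing sites was 7.48 units in rosiglitazone and 22.0 units in DMSO, or 9 and 25 tags. At the other peaks it was 32.4 units in rosiglitazone and 25.5 units in DMSO. Summed over the losing sites, 4614 tags in rosiglitazone stood against 13832 in DMSO, a scaled ratio of 0.315 with an exact 95% interval of 0.305 to 0.326. The interval covers counting error only, as do all intervals given here, and tags carry no molecular identifiers. Because the PPARγ ratio chose the losing sites, counting error was chosen with it. The PPARγ intervals at losing sites, summed or single, do not allow for this and belong to the description.

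Many losing sites lay near the limits. In the band of 0.1 log2 units inside the ratio limit there were 97 losing sites, and in the band of 0.1 just outside it 108 peaks. A site on chromosome 11 from 70657190 to 70657376, just inside, had 20 PPARγ tags in rosiglitazone and 39 in DMSO. A peak on chromosome 3 from 50794839 to 50795025, just outside, had 10 tags in rosiglitazone and 20 in DMSO. At the DMSO limit, 50 losing sites had exactly 20 DMSO tags, and 85 peaks with 19 met the ratio limit but not the DMSO limit. An example just inside, on chromosome 1 from 36956628 to 36956814, had 5 PPARγ tags in rosiglitazone and 20 in DMSO. An example just outside, on chromosome 13 from 119828445 to 119828631, had 9 in rosiglitazone and 19 in DMSO.

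The share of peaks that met the ratio limit was smaller where PPARγ was stronger in DMSO. Under 20 units it was 10.8% (150 of 1392 peaks), and from 20 to 25 units 8.45% (143 of 1692). It was 7.04% from 25 to 30 units, 6.39% from 30 to 40 units, and 3.12% at 40 units or more (40 of 1283). The DMSO value is also the denominator of the ratio, and counting error is larger at fewer tags. This course is therefore a description only.

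**Figure D1:**
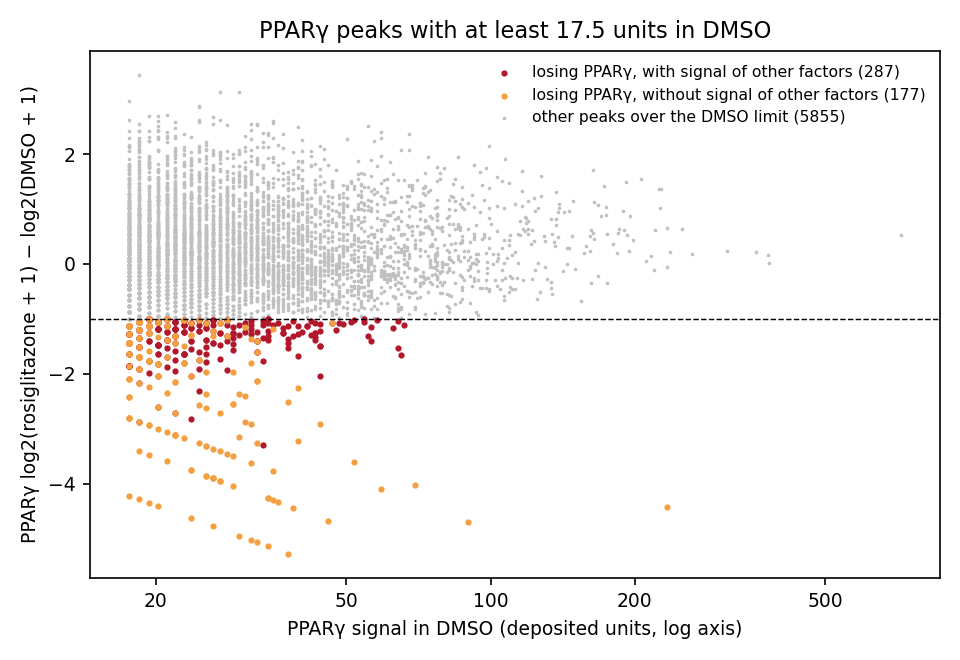
Each point is a PPARγ peak over the DMSO limit, placed by its PPARγ signal in DMSO (deposited units, log axis) and its log2 ratio of rosiglitazone to DMSO with a pseudocount of 1. The 287 losing sites with at least 10 tags of the other factors gather just under the dashed limit of -1. The 177 with fewer such tags reach down to -5.28.

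Tags of the other factors ranged from none to 278 per losing site, and a limit of 10 tags was set to describe them in 2 classes. A peak was said to have signal of the other factors when C/EBPα, MED1 and CBP together gave at least 10 tags over their 6 libraries. The limit cuts a graded range and was not set against input, so it does not stand for occupancy. Of the losing sites, 287 had such signal, a share of 61.9% (57.3 to 66.3), and 177 did not. Of the other peaks over the DMSO limit, 91.5% had it (90.8 to 92.2), and of all PPARγ peaks 67.9%. No tag of any of the 6 libraries was found at 33 losing sites, or 7.11% (4.95 to 9.84), against 7 of the 5855 other peaks, or 0.120% (0.0481 to 0.246). The deposited peak score was lower at losing sites, with a median of 14.1 against 29.9 at the other peaks. Among the 7274 other peaks whose score fell between the quartiles of the losing sites' scores, 78.7% had signal (77.8 to 79.7).

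**Figure D2:**
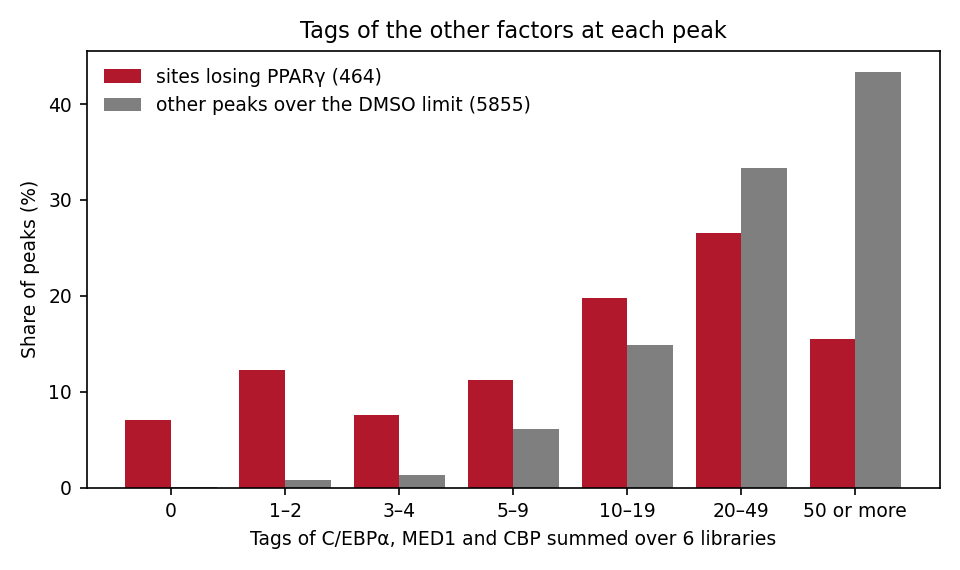
Bars give the share of peaks, in percent, by the number of C/EBPα, MED1 and CBP tags summed over 6 libraries, for the losing sites and for the other peaks over the DMSO limit. In the bands under 10 tags together lie 177 of the 464 losing sites and 496 of the 5855 other peaks.

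The 2 classes differed in how deep the PPARγ difference went. Median PPARγ in DMSO was 22.0 units in both. In rosiglitazone it was 4.99 units at losing sites without signal and 9.15 at those with it, or 6 and 11 tags. The summed PPARγ ratio was 0.197 (0.184 to 0.210) without signal and 0.388 (0.373 to 0.403) with it. PPARγ was at least 4-fold lower at 96 of the 177 sites without signal, or 54.2% (46.6 to 61.7), and at 26 of the 287 with signal, or 9.06% (6.00 to 13.0). The share was 1.93% of all 6319 peaks over the DMSO limit and 0.811% of all 30588 PPARγ peaks. By the rule, none of the other peaks over the DMSO limit could be that much lower. The depth is made of the PPARγ values that chose the sites, so this difference between the classes is a description. The 11 losing sites with 0 PPARγ tags in rosiglitazone were all without signal.

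Within the losing sites, the depth of the PPARγ difference followed the tags of the other factors in steps. At the 33 losing sites with none of their tags the median PPARγ signal was 1.66 units in rosiglitazone and 25.5 in DMSO, and 31 were at least 4-fold lower. With 1 or 2 tags, 42 of 57 sites were at least 4-fold lower, with 3 or 4 tags 11 of 35, and with 5 to 9 tags 12 of 52. With 10 to 19 tags it was 10 of 92, with 20 to 49 tags 12 of 123, and with 50 or more 4 of 72. Most of this step thus lay below 5 tags. It too is a description of sites chosen by their PPARγ values.

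Among the losing sites without signal, the strongest in DMSO lay on chromosome 5 from 114323239 to 114323425. It held 9.98 PPARγ units in rosiglitazone and 234 in DMSO, or 12 and 266 tags, a ratio of 0.0427 (0.0218 to 0.0758). C/EBPα had 0 tags there in either treatment, MED1 3 in rosiglitazone and 1 in DMSO, and CBP 2 in rosiglitazone and 1 in DMSO. Its deposited peak score was 18.4. A site of this class on chromosome 2 from 40335894 to 40336080 had a score of 44 with only 102 PPARγ tags in DMSO. The cause of the lower score was not tested. The highest DMSO value of all losing sites thus stood at a position with 7 tags of the other factors in all.

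Other strong sites of this class had as few. A site on chromosome 2 from 30956291 to 30956477 held 3.33 PPARγ units in rosiglitazone and 69.5 in DMSO, with 2 tags of the other factors. One on chromosome 10 from 80387237 to 80387423 held 2.49 units in rosiglitazone and 58.9 in DMSO, also with 2 such tags. The last, on chromosome 6 from 136494523 to 136494709, held 3.33 units in rosiglitazone and 51.9 in DMSO, again with 2. PPARγ at these 3 sites was between 0.0423 and 0.0641 times its DMSO value. Whether such sites were bound by PPARγ in DMSO or the signal belongs to that DMSO column alone cannot be told apart without replicate columns.

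The lowest PPARγ log2 ratios were all at sites with 0 PPARγ tags in rosiglitazone. A site on chromosome 4 from 43620234 to 43620420 had 39 tags in DMSO. It was 13.8-fold lower in rosiglitazone when 3 tags stand for the 0. Another on that chromosome, from 124521125 to 124521311, had 37 tags in DMSO, 13.0-fold lower on that footing. Chromosome 5 held one from 143191562 to 143191748 with 36 tags in DMSO, 12.7-fold lower. Chromosome 6 held one from 134574908 to 134575094 with 34 tags in DMSO, 12.0-fold lower. The first of all, on chromosome 11 from 55046199 to 55046385, was 15.2-fold lower. The exact upper bounds of these ratios ran from 0.0847 on chromosome 11 to 0.108 on chromosome 6, so smaller folds are not excluded. These 5 sites had at most 3 tags of the other factors each.

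Losing sites with signal had smaller PPARγ differences. The strongest in DMSO lay on chromosome 1 from 58672079 to 58672265, with 29.9 PPARγ units in rosiglitazone and 66.0 in DMSO, a ratio of 0.454 (0.296 to 0.684). C/EBPα there was 49.7 units in rosiglitazone and 13.3 in DMSO, and the site overlapped a C/EBPα peak. MED1 had 5 tags in rosiglitazone and 0 in DMSO, 3.65-fold higher when 3 tags stand for the 0, with an exact lower bound of 2.01. CBP had 5 tags in rosiglitazone and 8 in DMSO, a ratio of 1.71 (0.441 to 5.95), within counting error of 1. C/EBPα and MED1 were thus higher at this site and PPARγ lower.

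The next strongest sites with signal varied in the same respect. On chromosome 6 from 93274014 to 93274200, PPARγ had 24 tags in rosiglitazone and 74 in DMSO, and C/EBPα 11 in rosiglitazone and 9 in DMSO. On chromosome 10 from 56640891 to 56641077, PPARγ was 30.8 units in rosiglitazone and 64.2 in DMSO, with a MED1 ratio of 0.547 (0.0991 to 2.03). On chromosome 4 from 35252527 to 35252713, PPARγ was 21.6 units in rosiglitazone and 64.2 in DMSO, with a MED1 ratio of 6.57 (1.17 to 66.6). On chromosome 8 from 71372853 to 71373039, PPARγ was 27.4 units in rosiglitazone and 62.4 in DMSO, with a MED1 ratio of 3.65 (1.20 to 12.2). MED1 was therefore higher in rosiglitazone, beyond counting error, at 3 of the 5 strongest losing sites with signal. Each of these 3 had 10 or fewer MED1 tags in either treatment. MED1 was also higher at the other peaks over the DMSO limit with signal, with a summed ratio of 1.58. How often single peaks there passed counting error was not computed, so the 3 sites are a description.

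The lowest PPARγ ratio with signal was on chromosome 17 from 69745802 to 69745988, with 3 PPARγ tags in rosiglitazone and 38 in DMSO, a ratio of 0.0746 (0.0147 to 0.235). C/EBPα there had 8 tags in rosiglitazone and 2 in DMSO. The next, on chromosome 16 from 15948399 to 15948585, had 2 PPARγ tags in rosiglitazone and 21 in DMSO. It was rich in coactivators in DMSO. MED1 had 1 tag in rosiglitazone and 20 in DMSO, a ratio of 0.109 (0.00264 to 0.685), while CBP was 84.9 units in rosiglitazone and 81.8 in DMSO, a ratio of 1.04 (0.518 to 1.97). MED1 and PPARγ were thus both lower at this site and CBP was not distinguishable from no difference.

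C/EBPα was higher in rosiglitazone at losing sites with signal. Its summed tags were 4131 in rosiglitazone and 1738 in DMSO, a scaled ratio of 1.37 (1.30 to 1.45), or 18.3 and 13.4 units per site. At the other peaks over the DMSO limit with signal the C/EBPα ratio was 1.02 (1.01 to 1.03). The ratio at losing sites was 1.35 times that at the other peaks (1.27 to 1.43, Woolf interval on the tags), a quotient that does not depend on how the 2 libraries were scaled. The quotient was 1.38 (1.15 to 1.65) among peaks with 10 to 19 tags of the other factors, 1.23 (1.11 to 1.36) with 20 to 49, and 1.33 (1.23 to 1.43) with 50 or more. Against other peaks of similar score with signal, which were not held to the DMSO limit, it was 1.46 (1.37 to 1.54).

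C/EBPα was also described at single losing sites. At least 20 C/EBPα tags were found at 91 losing sites, and all of them overlapped a C/EBPα peak. On the log2 scale with a pseudocount of 1, C/EBPα was at least 2-fold higher in rosiglitazone at 21 of these and at least 2-fold lower at 2. These are 23.1% (14.9 to 33.1) and 2.20% (0.267 to 7.71) of the 91. Among all 5777 PPARγ peaks with as many C/EBPα tags, 15.4% were at least 2-fold higher and 8.07% lower, and among the 2364 of them over the DMSO limit 15.8% and 4.95%. The shares over the DMSO limit lie inside the intervals of the losing sites, so the 2-fold counts alone do not set them apart. The median C/EBPα log2 ratio was 0.43 at the 91 losing sites (quartiles 0.04 and 0.93), 0.16 at the 2273 other peaks over the DMSO limit, and 0.06 over all 5777. A C/EBPα tag was worth 1.27 units in rosiglitazone and 2.21 in DMSO. A peak therefore reached 20 tags more easily through the rosiglitazone library. The values of the 91 sites are thus a description of the sites that passed and no support for the summed ratio.

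Among the 91 losing sites with at least 20 C/EBPα tags, the highest C/EBPα ratio was on chromosome 12 from 80765218 to 80765404, with 34.4 C/EBPα units in rosiglitazone and 6.62 in DMSO, a ratio of 5.19 (1.60 to 26.7). PPARγ there was 6.65 units in rosiglitazone and 18.5 in DMSO. A site on chromosome 5 from 98344158 to 98344344 had 29.3 C/EBPα units in rosiglitazone and 6.62 in DMSO, a ratio of 4.42 (1.34 to 23.0). Next came the site on chromosome 1 from 58672079 to 58672265, the strongest losing site with signal, with a ratio of 3.75 (1.58 to 10.8). In contrast, C/EBPα was lower on chromosome 15 from 91010444 to 91010630, with 8.92 units in rosiglitazone and 28.7 in DMSO, a ratio of 0.311 (0.105 to 0.838). The next lowest of the 91, on chromosome 13 from 21493666 to 21493852, had a C/EBPα ratio of 0.399 (0.151 to 1.01), within counting error of 1. PPARγ and C/EBPα were thus both lower at the site at 91010444.

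MED1 was lower in rosiglitazone at losing sites with signal, whereas it was higher at the other peaks. Its summed tags were 367 in rosiglitazone and 1067 in DMSO, a scaled ratio of 0.753 (0.667 to 0.849), or 9.79 and 13.0 units per site. At the other peaks over the DMSO limit with signal the MED1 ratio was 1.58 (1.56 to 1.60), so the quotient of the 2 ratios was 0.476 (0.422 to 0.536). The difference stood at sites with more tags. The quotient was 0.973 (0.720 to 1.32) with 10 to 19 tags of the other factors, 0.558 (0.463 to 0.671) with 20 to 49, and 0.377 (0.312 to 0.454) with 50 or more.

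MED1 was thin at the losing sites, with 1 tag at the median over all 464 and 3 over those with signal, against 8 at the other peaks over the DMSO limit. At least 20 MED1 tags were found at 8 losing sites. MED1 was at least 2-fold lower in rosiglitazone at 5 of these and at least 2-fold higher at 1, on the log2 scale with a pseudocount of 1. Among all 4274 PPARγ peaks with as many MED1 tags, 8.14% were at least 2-fold lower and 45.1% higher, and among the 1647 of them over the DMSO limit 14.6% and 44.2%. The 8 sites are few, and the exact interval of their share that was lower is 24.5% to 91.5%. A MED1 tag was worth 7.65 units in rosiglitazone and 3.49 in DMSO, so a site reached 20 tags more easily through the DMSO library, and the 5 lower sites had 18 to 36 MED1 tags in DMSO. Their count is therefore a description of the sites that passed and no support for the summed ratio.

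Among the 8 losing sites with at least 20 MED1 tags, the lowest MED1 ratio was on chromosome 4 from 97481282 to 97481468, with 7.65 MED1 units in rosiglitazone and 108 in DMSO, or 1 and 31 tags, a ratio of 0.0706 (0.00173 to 0.424). PPARγ there was 9.15 units in rosiglitazone and 22.0 in DMSO, and C/EBPα 42.0 in rosiglitazone and 24.3 in DMSO. The site on chromosome 16 with 1 and 20 MED1 tags, given above, was the next. On chromosome 8 from 10816175 to 10816361, MED1 was 30.6 units in rosiglitazone and 126 in DMSO, a ratio of 0.243 (0.0629 to 0.679). Of the 8 sites, MED1 was at least 2-fold higher at the one on chromosome 15 from 58655390 to 58655576, where MED1 had 16 tags in rosiglitazone and 5 in DMSO, a ratio of 7.01 (2.45 to 24.5). C/EBPα had 0 tags in rosiglitazone and 2 in DMSO at that site, and PPARγ was 9.15 units in rosiglitazone and 20.2 in DMSO.

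CBP was higher in rosiglitazone at losing sites with signal, by a little less than elsewhere. The CBP ratio was 1.29 (1.21 to 1.38), from 1251 tags in rosiglitazone and 2652 in DMSO. At the other peaks over the DMSO limit with signal it was 1.49 (1.47 to 1.50), a quotient of 0.872 (0.814 to 0.933). Against other peaks of similar score with signal the quotient was 0.962 (0.898 to 1.03), so the difference in CBP was not distinguishable from none there. Of 65 losing sites with at least 20 CBP tags, 9 were at least 2-fold higher in rosiglitazone and 4 lower, or 13.8% (6.53 to 24.7) and 6.15%. Of all 3419 PPARγ peaks with as many CBP tags, 22.7% were higher and 5.7% lower, and of the 1893 over the DMSO limit 25.5% and 4.33%. The interval of the higher share at losing sites held the value over all PPARγ peaks, and its upper end lay below the 25.5% over the DMSO limit.

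Among the 65 losing sites with at least 20 CBP tags, CBP was higher beyond counting error at the 3 with the highest log2 ratio. The first of them, on chromosome 9 from 30996831 to 30997017, had CBP at 109 units in rosiglitazone and 30.9 in DMSO, a ratio of 3.53 (1.66 to 7.66). Chromosome 14 held the next from 117790814 to 117791000, at 2.74 (1.13 to 6.68). Chromosome 6 held another from 138088574 to 138088760, at 2.47 (1.23 to 4.92). The lowest of the 65, on chromosome 6 from 17258692 to 17258878, had 24.3 CBP units in rosiglitazone and 57.5 in DMSO, a ratio of 0.422 (0.107 to 1.22). The intervals of the 3 lowest of these ratios all included 1, so none of these was shown to be lower.

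**Figure D3:**
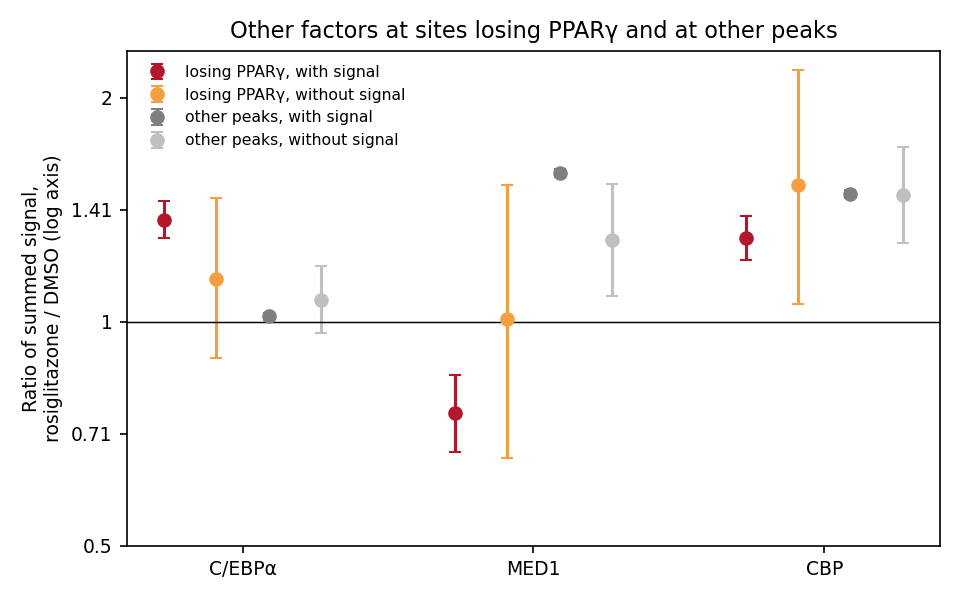
Points give the ratio of summed signal, rosiglitazone over DMSO (log axis), for C/EBPα, MED1 and CBP at losing sites and other peaks over the DMSO limit, each with and without signal of the other factors, and bars give exact 95% intervals of counting error. At losing sites with signal C/EBPα lies at 1.37 and MED1 at 0.753, while the other peaks with signal lie at 1.02 and 1.58.

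At losing sites without signal the other factors could hardly be measured. C/EBPα had 198 tags in rosiglitazone and 100 in DMSO over all 177 sites, MED1 35 and 76, and CBP 50 and 90. The ratios were 1.14 (0.894 to 1.47) for C/EBPα, 1.01 (0.656 to 1.52) for MED1 and 1.52 (1.06 to 2.18) for CBP. None of the 3 was distinguishable from its value at the 496 other peaks without signal, with quotients of 1.07 (0.821 to 1.39), 0.783 (0.507 to 1.21) and 1.03 (0.707 to 1.50). The difference between the losing sites with and without signal was not detectable at this depth either, with quotients of 1.20 (0.938 to 1.54) for C/EBPα, 0.747 (0.492 to 1.13) for MED1 and 0.849 (0.597 to 1.21) for CBP.

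The ratios of C/EBPα and MED1 were not set apart at the ratio limit that defines a losing site. Peaks with signal just above the limit, with a PPARγ log2 ratio between -1 and -0.5, had a C/EBPα ratio of 1.27 (1.23 to 1.32) and a MED1 ratio of 0.683 (0.641 to 0.728) over 771 peaks. Between -0.5 and 0 the ratios were 1.24 (1.21 to 1.27) and 0.830 (0.799 to 0.862) over 1337 peaks. From 0 to 0.5 they were 0.997 (0.977 to 1.02) and 1.23 (1.20 to 1.27), and from 0.5 to 1 they were 0.807 (0.790 to 0.824) and 1.71 (1.66 to 1.76). Above a PPARγ log2 ratio of 1 they were 1.01 (0.993 to 1.03) and 2.30 (2.26 to 2.35) over 981 peaks, so C/EBPα took no steady course across the bands. Within the losing sites with signal, the 152 nearest to the limit had a C/EBPα ratio of 1.43 (1.33 to 1.54) and a MED1 ratio of 0.807 (0.688 to 0.943). The 10 sites at -2 or below had 1.43 (0.980 to 2.12) and 0.274 (0.0843 to 0.694). Neither ratio moved steadily within the losing sites, since the 57 sites between -2 and -1.5 had a C/EBPα ratio of 1.16 (1.01 to 1.33) and a MED1 ratio of 1.01 (0.753 to 1.34).

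**Figure D4:**
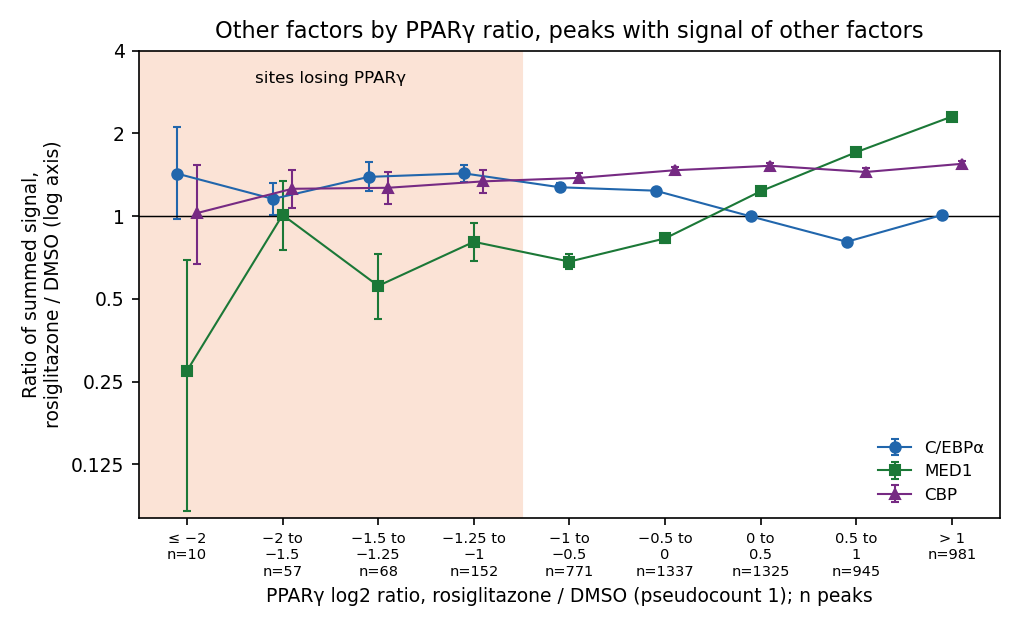
The ratio of summed signal of C/EBPα, MED1 and CBP, rosiglitazone over DMSO (log axis), is plotted by band of the PPARγ log2 ratio for peaks over the DMSO limit with signal, with exact 95% intervals of counting error and the number of peaks per band. In the shaded bands of the losing sites MED1 lies below its value at the other peaks with signal, 1.58, and at the peaks with a PPARγ log2 ratio above 1 it lies at 2.30.

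A C/EBPα peak overlapped 180 of the 464 losing sites by at least 1 bp, or 38.8% (34.3 to 43.4). The share was 58.9% (57.6 to 60.2) of the other peaks over the DMSO limit and 36.1% of all PPARγ peaks. Among other peaks of similar score it was 40.1% (39.0 to 41.3), inside the interval of the losing sites. C/EBPα tags count towards signal, so the overlap is tied to the class by construction. It was found at 177 of the 287 losing sites with signal, or 61.7% (55.8 to 67.3), and at 3 of the 177 without. The other peaks with signal had 64.1% (62.8 to 65.4).

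Where a losing site and a C/EBPα peak overlapped, the centres lay 32.5 bp apart at the median, and 36 bp apart at the other peaks. Within 50 bp of each other were 116 of the 180 pairs. The C/EBPα peaks concerned had a median score of 21 and stood at the 66.5th percentile of their own list at the median, against 26.7 and the 76.4th percentile for those at the other peaks. Losing sites outside C/EBPα peaks were 11.4 kb from the nearest one at the median, against 3.76 kb for the other peaks. For those with signal the distance was 5.48 kb.

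The direction of the other factors did not require a C/EBPα peak. At the 110 losing sites with signal and no C/EBPα peak, the C/EBPα ratio was 1.44 (1.21 to 1.71), the MED1 ratio 0.804 (0.663 to 0.972) and the CBP ratio 1.32 (1.17 to 1.48). At the 177 with signal and a C/EBPα peak the ratios were 1.36 (1.28 to 1.45), 0.721 (0.615 to 0.842) and 1.28 (1.18 to 1.39). The quotients of these ratios, with over without a peak, were 0.948 (0.792 to 1.13), 0.896 (0.704 to 1.14) and 0.977 (0.846 to 1.13), so no difference was detectable at this depth.

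The richest losing sites in the other factors overlapped C/EBPα peaks, and C/EBPα tags count towards that richness. The first, on chromosome 10 from 116738950 to 116739136, had 278 tags of the other factors, of which 261 were C/EBPα. Its C/EBPα signal was 214 units in rosiglitazone and 205 in DMSO, and PPARγ was 24.9 in rosiglitazone and 56.3 in DMSO. It was the 1 losing site in a 1 Mb region where C/EBPα or PPARγ tags were high also outside shared peaks. The second, on chromosome 5 from 136689708 to 136689894, had 183 such tags, with a C/EBPα ratio of 1.27 (0.838 to 1.97) and a MED1 ratio of 0.657 (0.216 to 1.70). Then a site on chromosome 10 from 107377490 to 107377676, was rich in CBP, with 176 units in rosiglitazone and 155 in DMSO, and its MED1 ratio was 0.378 (0.114 to 0.986). With 50 or more tags of the other factors, 91.7% of losing sites overlapped a C/EBPα peak (82.7 to 96.9). The share was 83.9% (82.5 to 85.3) at the other peaks over the DMSO limit with as many.

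The focus ratio is a fraction between 0 and 1 that the authors deposited for each peak, in which a higher value stands for tags gathered more closely around the peak centre in the peak caller named in the processing notes. Its median was 0.886 at losing sites without signal (exact 95% interval 0.854 to 0.912) and 0.818 at those with signal (0.800 to 0.830). The other peaks over the DMSO limit had 0.868 (0.855 to 0.877) without signal and 0.835 (0.832 to 0.839) with it. Taken as a whole, the losing sites did not stand out from the other peaks over the DMSO limit, with 0.839 (0.825 to 0.851) against 0.838 (0.835 to 0.841). Their 2 classes lay on either side of those peaks. Other peaks of similar score had a lower median of 0.805 (0.800 to 0.808). It was 0.833 (0.829 to 0.842) for those without signal and 0.795 (0.792 to 0.800) for those with it. Against peaks of similar score, the losing sites thus had higher medians as a whole and in both classes.

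The focus ratio was also described at its ends. It was 0.9 or more at 83 of the 177 losing sites without signal, or 46.9% (39.4 to 54.5), and at 48 of the 287 with signal, or 16.7% (12.6 to 21.6). The shares at the other peaks were 32.3% (28.2 to 36.6) without signal and 21.6% (20.5 to 22.7) with it. Of the 59 losing sites at 0.95 or more, 42 were without signal, or 71.2% (57.9 to 82.2), against 68 of the 347 other peaks in that band, or 19.6% (15.6 to 24.2). Of the 41 losing sites under 0.7, 8 were without signal. At the 33 losing sites with no tag of the other factors the median focus ratio was 0.938.

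**Figure D5:**
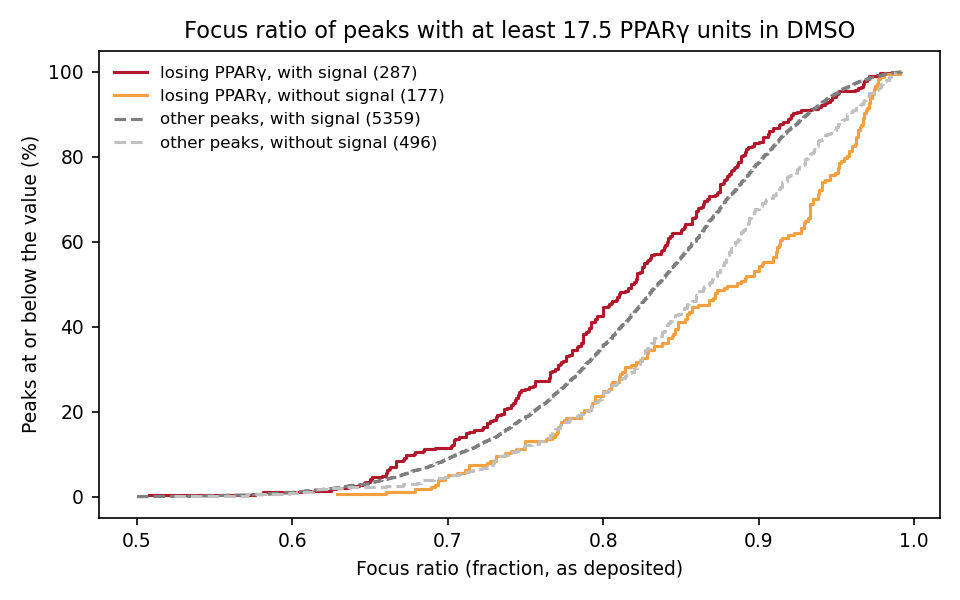
Lines give the percentage of peaks at or below each focus ratio for losing sites and other peaks over the DMSO limit, each with and without signal of the other factors. The line of the 177 losing sites without signal lies farthest right, with a median of 0.886, and that of the 287 with signal farthest left, with 0.818.

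Losing sites were scattered over the genome. All 20 chromosomes with PPARγ peaks had some, from 4.73% of the peaks over the DMSO limit on chromosome 7 (14 of 296) to 10.5% on chromosome 3 (29 of 275). The intervals of these 2 shares overlapped, at 2.61% to 7.81% and 7.18% to 14.8%. Another losing site within 10 kb was found for 18 of the 464, in 9 pairs. The pair on chromosome 4 spans 35251648 to 35252713, and that on chromosome 15 spans 91003477 to 91010630.

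Losing sites had fewer PPARγ neighbours than the other peaks. A second PPARγ peak lay within 10 kb of 46.6% of the losing sites (41.9 to 51.2), against 62.6% of the other peaks over the DMSO limit (61.3 to 63.8). The share was 33.9% (27.0 to 41.4) at losing sites without signal and 54.4% (48.4 to 60.2) at those with it. For the other peaks without and with signal it was 52.8% (48.3 to 57.3) and 63.5% (62.2 to 64.8).

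PPARγ was higher in rosiglitazone at the peaks next to losing sites. Over the 205 nearest PPARγ peaks within 10 kb that were not losing sites themselves, the PPARγ ratio was 1.30 (1.24 to 1.36), from 4681 tags in rosiglitazone and 3407 in DMSO. The PPARγ log2 ratio was below 0 at 66 of these 205, or 32.2%. Beside the other peaks over the DMSO limit the ratio of such neighbours was 1.65 (1.63 to 1.66), and 24.9% of 3475 were below 0. MED1 at the neighbours of losing sites had a ratio of 1.34 (1.22 to 1.47) and C/EBPα one of 0.960 (0.899 to 1.03), on the other side of 1 for MED1 from the losing sites themselves.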

How the data were processed

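The build was mm9 and the tools named were Bowtie, HOMER, FastQC and edgeR, per the submitters' processing notes, with settings not given in the sources used here. The authors deposited a PPARγ list of 186 bp peaks and a C/EBPα list of 230 bp peaks, with a normalised tag signal in 8 columns, a score per peak and a focus ratio, a fraction per peak. In each column the signal values deposited above 0 were whole multiples of 1 step (100% within 0.02 steps), so tags were recovered. A tag was worth 0.831 units in rosiglitazone and 0.879 in DMSO for PPARγ, 1.27 and 2.21 for C/EBPα, 7.65 and 3.49 for MED1, and 6.06 and 2.21 for CBP, so the coactivators were the least precise. A count model needs replicate columns and could not be fitted. The MED1 column headed BRL, a code of rosiglitazone, was assigned to the MED1 rosiglitazone sample.

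The members and lists were chosen with earlier results of these data known. Ratios are of summed tags with exact Clopper-Pearson 95% intervals, computed with SciPy 1.17.1 and tested on simulated data. The simulated peaks were drawn at random, so the test does not cover PPARγ ratios at sites chosen by that ratio. Quotients of ratios have Woolf intervals. The peaks named were, per class, the 5 highest in DMSO and the 5 with the lowest PPARγ ratio. Also named were the 5 with most tags of other factors, the 3 highest and 3 lowest ratios of each factor among sites with 20 tags of it, and peaks at the limits. Not all are printed. The gene table at hand is of another build, so peaks carry no gene names.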

Additional observations from a re-analysis of the deposited data

How the results depend on the processing

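No paired analysis was possible because the PPARγ columns name no replicate and every factor has 1 column per treatment, so no library could be left out either. Of 45 alternatives, 34 kept their value within 1.5 times for the number of losing sites, or within the interval of the value reported for the other results. The MED1, CBP, C/EBPα and neighbour ratios kept their direction under all of their alternatives. For the number of losing sites, the shares and the focus ratio no direction was checked. The MED1 ratio at losing sites with signal lay in its interval under all 9 of its alternatives, as did the median focus ratio under 3 and the PPARγ ratio of the neighbours under 2.

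The number of losing sites was 275 with a pseudocount of 5, and 1385 with the PPARγ log2 ratio centred on the median of all peaks, which lies at 0.50. The share with signal was 73.1% when 5 tags counted and 42.0% when 20 did. The share overlapping a C/EBPα peak was 33.0% for centres within 100 bp and 28.7% when only C/EBPα peaks scoring above their median counted. The C/EBPα ratio was 1.47 with a DMSO minimum of 20 units. Counted in the windows of the C/EBPα peaks, an alternative chosen after seeing the data that also leaves only the 177 sites with signal and a C/EBPα peak, it was 1.27 and the CBP ratio 1.20. Another PPARγ peak lay within 5 kb of 29.7% of the losing sites and within 50 kb of 81.7%. Fewer tags or wider windows set these shares by construction. For the C/EBPα and CBP ratios the cause was not tested. Also chosen after seeing the data were losing sites taken by the centred ratio, signal taken from the other 2 factors alone, and the comparison with peaks of similar score. MED1, with 8 losing sites of at least 20 tags, is limited most by depth.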
